A study of Mus musculus with 12 samples.

Results

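The endoplasmic reticulum (ER) folds proteins bound for the cell surface and for secretion, and the genes described here are its chaperones together with those of the unfolded protein response. The members were a fixed list of 32 gene symbols, matched to Ensembl IDs and kept where at least 10 counts were found in at least 2 libraries. All 32 passed, out of 16281 genes that passed among the 54232 in the table. They were split by role into 4 sensors and factors, 12 chaperones, 4 disulfide isomerases, 7 genes of ER-associated degradation (ERAD) and 5 of translocation and export. RNA was sequenced from bone marrow derived macrophages (BMDMs) of C57BL/6 mice that had been cultured for 5 days. The cells were then kept for 24 h without or with tumor-conditioned medium (TCM) and without or with 500 nM R788. R788 (fostamatinib) is a prodrug that inhibits the kinase Syk. TCM came from NB9464, a mouse neuroblastoma line with MYCN amplification, or from NBT3L, a line without it. The 6 groups of 2 libraries were no TCM and no R788 (NS, libraries SJ1 and SJ2), NB9464 TCM (SJ3 and SJ4), NBT3L TCM (SJ5 and SJ6), R788 alone (SJ7 and SJ8), NB9464 TCM + R788 (SJ9 and SJ10) and NBT3L TCM + R788 (SJ11 and SJ12). Neither the medium of the cells without TCM nor the vehicle for R788 was stated. An effect of TCM thus cannot be told apart from one of base medium or serum. Per the study's methods, macrophages were grown in RPMI with serum, and NB9464 TCM was serum-free DMEM collected after 48 h. How NBT3L TCM was prepared was not stated, so a difference between the media cannot be told apart from one in preparation.

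The unfolded protein response starts from 3 sensors in the ER membrane, IRE1 (gene Ern1), PERK (Eif2ak3) and ATF6 (Atf6), which the chaperone BiP (Hspa5) holds inactive while folding keeps pace. IRE1 splices the mRNA of Xbp1 into the form that makes an active transcription factor, PERK slows translation and raises the factor ATF4, and ATF6 travels to the Golgi, where it is cut into a factor. ATF6 and XBP1 switch on chaperones and degradation genes through short promoter motifs, the ER stress response elements. Counts per gene do not show Xbp1 splicing, ATF6 cleavage or PERK activity, so the values below are levels of mRNA only. Macrophages keep a large ER for the cytokines, lysosomal enzymes and receptors that they make.

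Promoter sequence is shown first because many members carry the same motif. RefSeq windows on GRCm38.p6, from 250 bases before to 50 after the transcription start, were at hand for 27 of the 32 members, and not for Atf6, Manf, Hyou1, Derl1 and Sec61a1. Both strands were searched for the ER stress response element (ERSE, CCAAT and CCACG with 9 bases between them), for ERSE-II (ATTGG and CCACG with 1 base between them) and for the core of the unfolded protein response element (UPRE, TGACGTGG), with any base allowed in the spacers. None of the matches overlapped each other. The windows of 8 members held an ERSE, those of 2 an ERSE-II and that of 1 a UPRE core, so that 11 of 27 had at least 1 motif. Of all 32851 RefSeq windows of that length, 0.119% held an ERSE, 0.0365% an ERSE-II, 0.676% a UPRE core and 0.822% any of them. A match describes letters and was not tested as a binding site. The 250 bases before the start are printed 5′ to 3′ on the strand of the gene for 4 members, with the fixed letters of each motif in capitals. They are Hspa5 (chr2:34771840-34772089, plus strand), Hsp90b1 (chr10:86705445-86705694, minus strand), Calr (chr8:84846932-84847181, minus strand) and Herpud1 (chr8:94386179-94386428, plus strand), of which Hsp90b1 held 2 ERSEs that face each other and Herpud1 the ERSE-II.
Hspa5: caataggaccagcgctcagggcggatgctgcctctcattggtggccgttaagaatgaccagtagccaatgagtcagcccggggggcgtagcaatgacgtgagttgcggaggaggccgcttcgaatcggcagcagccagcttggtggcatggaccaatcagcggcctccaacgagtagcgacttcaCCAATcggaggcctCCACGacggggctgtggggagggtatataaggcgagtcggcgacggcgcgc
Hsp90b1: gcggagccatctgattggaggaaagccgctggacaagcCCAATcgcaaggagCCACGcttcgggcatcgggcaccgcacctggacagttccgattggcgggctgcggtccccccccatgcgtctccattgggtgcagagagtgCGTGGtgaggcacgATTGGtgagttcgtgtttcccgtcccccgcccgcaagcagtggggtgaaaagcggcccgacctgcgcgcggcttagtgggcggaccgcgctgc
Calr: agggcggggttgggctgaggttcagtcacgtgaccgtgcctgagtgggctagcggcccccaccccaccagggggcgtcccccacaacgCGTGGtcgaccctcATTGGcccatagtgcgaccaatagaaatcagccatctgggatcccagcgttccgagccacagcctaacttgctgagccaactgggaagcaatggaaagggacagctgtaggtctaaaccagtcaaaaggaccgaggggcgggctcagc
Herpud1: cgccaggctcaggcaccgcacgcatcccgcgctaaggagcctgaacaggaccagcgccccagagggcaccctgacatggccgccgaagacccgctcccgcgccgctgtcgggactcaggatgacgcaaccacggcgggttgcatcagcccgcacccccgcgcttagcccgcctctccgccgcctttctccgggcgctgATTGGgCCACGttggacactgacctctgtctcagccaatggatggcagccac

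All 12 matches in the members are set side by side below so that the spacer bases, in lower case, can be compared. Each is read from the strand on which the motif runs as spelled above.
Hspa5 ERSE: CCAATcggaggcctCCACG
Calr ERSE: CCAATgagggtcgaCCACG
Hsp90b1 ERSE: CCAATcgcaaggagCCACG
Hsp90b1 ERSE: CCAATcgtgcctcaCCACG
Canx ERSE: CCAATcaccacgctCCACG
Pdia6 ERSE: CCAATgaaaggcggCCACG
Dnajc3 ERSE: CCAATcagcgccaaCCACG
Creld2 ERSE: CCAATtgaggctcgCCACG
Syvn1 ERSE: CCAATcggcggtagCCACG
Herpud1 ERSE-II: ATTGGgCCACG
Dnajb11 ERSE-II: ATTGGcCCACG
Sec24d UPRE core: TGACGTGG
No spacer was shared between ERSEs. Beyond the 4 windows printed above, the matches lay at chr11:50325800-50325818 (Canx), chr12:17266491-17266509 (Pdia6), chr14:118937827-118937845 (Dnajc3), chr15:88819520-88819538 (Creld2), chr19:6046532-6046550 (Syvn1), chr16:22857852-22857862 (Dnajb11) and chr3:123267470-123267477 (Sec24d). The ERSE of Hspa5 ended 47 bases before the start and that of Calr 144 bases before it. The ERSE-II of Dnajb11 was the only match after the start, from base 8 to base 18.

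**Figure D1:**
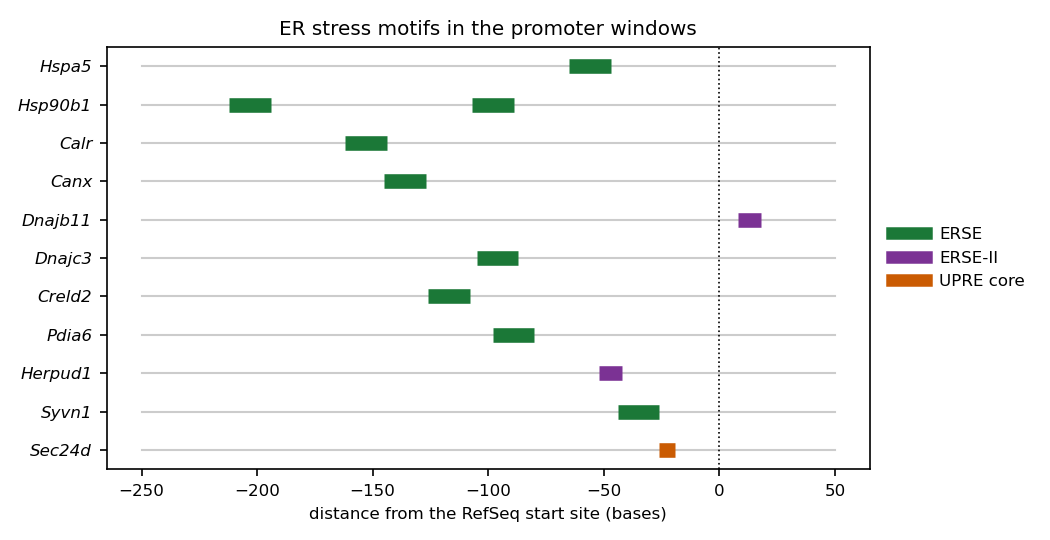
Positions of the 3 motifs in the promoter windows of the 11 members that held one. The x axis is the distance in bases from the RefSeq start site, each row is a gene, and colored bars are matches on either strand. Hsp90b1 has 2 matches, and all but that of Dnajb11 lie before the start.

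Total counts ranged from 44977847 to 56449685 per library. Library SJ8 (R788 alone) stood apart, with 16149 genes detected against 17275 to 18343 in the other 11. The label of macrophages was met, since all 8 macrophage markers were tested and their summed level ranged from 72380 to 86870 TPM, against 0 to 1.58 TPM for 8 neuroblastoma markers, with Th and Chga at 0 counts throughout. The list of 6 neutrophil markers summed to 426 to 459 TPM in NS and to 664 to 765 TPM with TCM alone. Within that list S100a8 ranged from 108 to 124 TPM in NS and from 451 to 563 TPM with TCM alone, S100a9 from 294 to 312 TPM and from 179 to 220 TPM, and Ly6g stayed at or below 0.25 TPM. The 5 fibroblast markers summed to 8.67 to 11.2 TPM in NS and to 19.8 to 24.2 TPM with R788 alone. The part of these marker lists in the results below was not tested. Exons of other genes overlap those of some members on the opposite strand, such as 231 bases of Derl2 with Mis12, 146 of Manf with Dcaf1, 91 of Syvn1 with Mrpl49 and 825 of Ppib with the nearly silent Snx22. Whether the counting used strand was not stated, so reads in these stretches cannot be told apart.

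The members spanned a wide range of abundance. On the TPM scale, which divides counts by gene length, scales each library to the same sum and so allows levels of different genes to be compared, the glycoprotein chaperone Calr led with a mean of 1815 TPM over the 12 libraries. It was followed by the protein disulfide isomerase P4hb (1185 TPM), its relative Pdia3 (1101 TPM), Hspa5 (945 TPM) and the co-chaperone Sdf2l1 (637 TPM). The lowest were the sensors Eif2ak3 (16.9 TPM) and Ern1 (19.1 TPM), the channel protein Derl2 (30.5 TPM) and the sensor Atf6 (36.6 TPM). Calr thus ranked above 99.7% of the tested genes and Eif2ak3 above 63.2% of them. Counting covered the exons of whole genes, such as those of Hspa5 on the plus strand at chr2:34771970-34777547 and of Herpud1 on the plus strand at chr8:94386438-94395377, and on the minus strand those of Calr at chr8:84841850-84846934 and Ern1 at chr11:106394650-106487852 (GRCm38). The ranges of P4hb and Pdia3 over the libraries overlapped, as did those of Ern1 and Eif2ak3, so their order is not fixed.

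**Figure D2:**
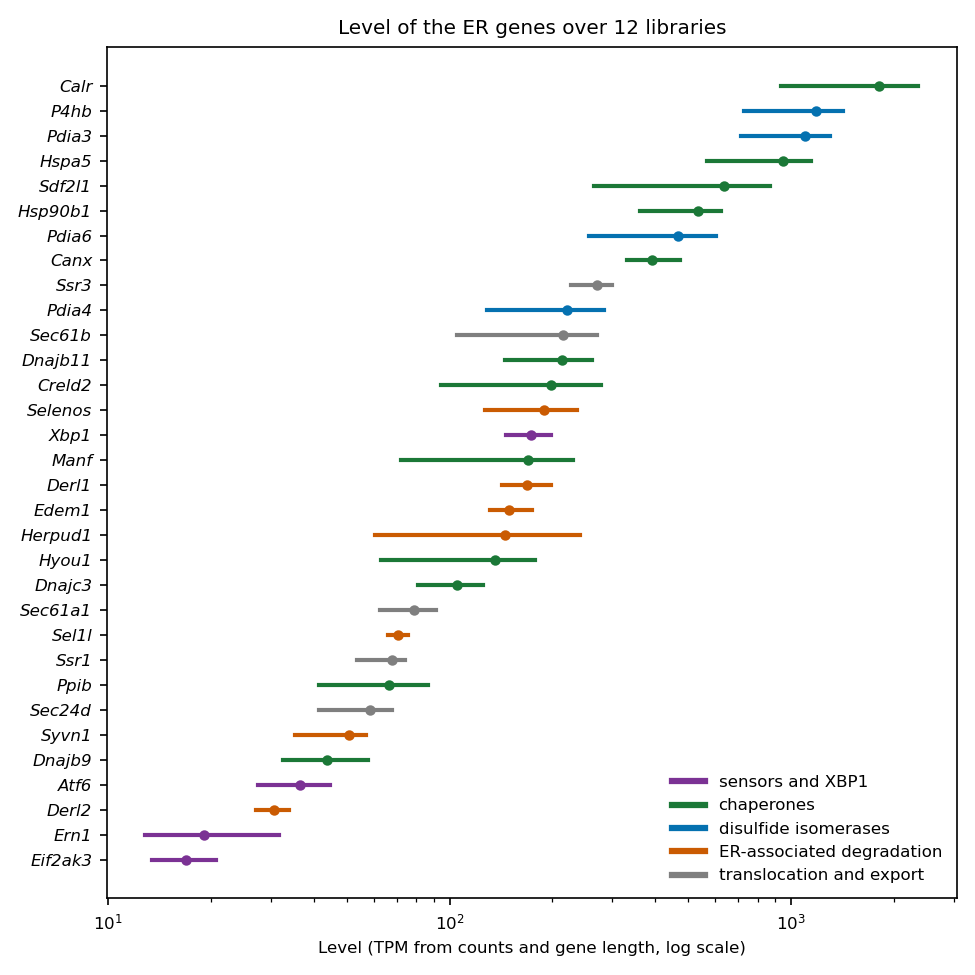
Level of each of the 32 genes in TPM on a log axis, computed from counts and gene length. Points are means of 12 libraries, lines run from the lowest to the highest library, and colors mark the role. Chaperones and disulfide isomerases fill the top 8 places, and 3 of the 4 sensors and factors are among the lowest 4 genes.

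Taken as a sum, the 32 genes made up 0.849% of all TPM in NS, 1.11% with NB9464 TCM and 1.18% with NBT3L TCM. With R788 alone the share was 0.669%, the lowest of the 6 groups, and with R788 added to the TCM it was 1.02% (NB9464) and 1.15% (NBT3L). The sums were 8491 ± 235 TPM in NS, 11135 ± 90.6 TPM with NB9464 TCM and 11770 ± 40.3 TPM with NBT3L TCM (SD, n = 2 each). They were 6687 ± 257 TPM with R788, 10244 ± 316 TPM with NB9464 TCM + R788 and 11475 ± 37.6 TPM with NBT3L TCM + R788 (SD, n = 2 each). No library of the 4 groups with TCM fell to the level of the 4 libraries without it.

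The first question was how macrophages respond to neuroblastoma TCM. With NB9464 TCM, 29 of the 32 members were higher than in NS and none lower at an adjusted p under 0.05 in DESeq2, where 34.1% of all tested genes were called (17.2% higher and 16.9% lower). With NBT3L TCM, 28 were higher and none lower, against 35.3% of all tested genes called (18% higher and 17.3% lower). The median log2 fold change of the members was 0.61 with NB9464 TCM and 0.80 with NBT3L TCM, beside 0.02 and 0 over all tested genes. The libraries of the 2 groups did not overlap for 30 members with NB9464 TCM and for 31 with NBT3L TCM, where the same held for 64.5% and 66.8% of all tested genes. Of the 6989 genes averaging 1000 counts or more, as all 32 members did, 53.0% and 55.3% were called. At an unadjusted p under 0.05 the members lower were none with NB9464 TCM and 1 with NBT3L TCM, and edgeR also called 29 and 28 higher and none lower. Both comparisons use the same NS libraries. Normalized counts divide by a median-of-ratios factor, and with total counts in its place, a scaling chosen after the data were seen, the median of all tested genes moved by -0.12 with NB9464 TCM and by -0.23 with NBT3L TCM. Then 26 members were called higher and none lower with NB9464 TCM, while with NBT3L TCM 25 were higher and 3 were lower (Ern1, Atf6 and Edem1). Under that scaling 35.9% of all tested genes were called with NB9464 TCM, 2070 higher and 3781 lower. With NBT3L TCM 41.8% were called, 1824 higher and 4975 lower.

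Among the sensors and factors, Xbp1, the factor of the IRE1 arm, rose with both media. Its normalized counts were 7367 and 7886 in NS, 11541 and 11940 with NB9464 TCM and 10597 and 10478 with NBT3L TCM. Both TCM groups lay above NS, by a log2 fold change of 0.62 ± 0.06 (SE; adjusted p = 7.31e-23) and 0.47 ± 0.06 (adjusted p = 4.40e-13). Values of the sensors were smaller. Ern1 counts were 2529 and 2207 in NS, 2808 and 2918 with NB9464 TCM and 2167 and 2414 with NBT3L TCM. Only the NB9464 pair stood clear of NS, by 0.27 ± 0.10 (adjusted p = 0.0221), and with NBT3L TCM the value was -0.05 ± 0.10 (adjusted p = 0.787). Eif2ak3 counts were 1657 and 1611 in NS, 2067 and 1926 with NB9464 TCM and 1920 and 1670 with NBT3L TCM. The log2 values were 0.29 ± 0.10 (adjusted p = 0.0174) and 0.13 ± 0.10 (adjusted p = 0.351). Both NB9464 calls of sensors rest on single libraries: that of Ern1 was lost without SJ2, SJ3 or SJ4, with an adjusted p of up to 0.313, and that of Eif2ak3 without SJ1, SJ2 or SJ3, with one of up to 0.19. With total counts as size factors neither was called.

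Atf6 was not called with either medium. Its counts were 6394 and 6206 in NS, 6947 and 6119 with NB9464 TCM and 5615 and 5421 with NBT3L TCM. The NB9464 libraries lay on both sides of NS (0.05 ± 0.09, adjusted p = 0.731), and the NBT3L libraries lay below it (-0.19 ± 0.09, adjusted p = 0.0819). With total counts as size factors the first value turned to -0.08, and the second, at -0.42, was called.

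The chaperones rose together with TCM. With NB9464 TCM 11 of 12 were called higher (median log2 0.73), the exception being Canx (0.03 ± 0.09, adjusted p = 0.836), the membrane-bound partner of Calr. With NBT3L TCM all 12 were called higher (median log2 0.87), although Canx was not called without SJ6, where its adjusted p was 0.0659. BiP itself had 52663 and 52122 normalized counts in NS, 88347 and 88058 with NB9464 TCM and 99205 and 96662 with NBT3L TCM. The 3 groups were ordered without overlap, and the log2 rises over NS were 0.75 ± 0.05 (adjusted p = 4.10e-46) and 0.90 ± 0.05 (adjusted p = 3.07e-66). The largest rises of the class were those of Hyou1, Manf, Creld2 and Sdf2l1. Hyou1, which exchanges the nucleotide of BiP, had 9051 and 8691 counts in NS, 22712 and 23987 with NB9464 TCM and 25823 and 25537 with NBT3L TCM. These were rises of 1.40 ± 0.05 (adjusted p = 3.00e-166) and 1.53 ± 0.05 (adjusted p = 3.83e-200), or 2.63-fold and 2.89-fold.

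Manf, a small ER protein that can be secreted, had 5579 and 6452 counts in NS, 13408 and 13771 with NB9464 TCM and 16702 and 16067 with NBT3L TCM. It rose by 1.18 ± 0.08 (adjusted p = 1.33e-53) and 1.45 ± 0.08 (adjusted p = 9.07e-81). Creld2, a further small ER protein induced by folding stress, had 2641 and 2835 counts in NS, 5810 and 6436 with NB9464 TCM and 7822 and 7778 with NBT3L TCM. Its log2 rises were 1.16 ± 0.07 (adjusted p = 2.44e-53) and 1.51 ± 0.07 (adjusted p = 5.90e-90). Sdf2l1, which works with the co-chaperone made by Dnajb11, had 7238 and 8243 counts in NS, 15364 and 16891 with NB9464 TCM and 17675 and 16889 with NBT3L TCM. It rose by 1.06 ± 0.08 (adjusted p = 1.31e-35) and 1.16 ± 0.08 (adjusted p = 1.79e-42). In all 3 genes every TCM library lay above both NS libraries. The remaining chaperones rose less: Calr by 0.60 and 0.98, the ER HSP90 gene Hsp90b1 by 0.42 and 0.65, and the prolyl isomerase Ppib by 0.47 and 0.79 on the log2 scale. The co-chaperones Dnajb9, Dnajb11 and Dnajc3 rose by 0.87, 0.52 and 0.70 with NB9464 TCM and by 0.73, 0.84 and 0.82 with NBT3L TCM.

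All 4 disulfide isomerases, which form and shuffle the disulfide bonds of new proteins, rose with both media. P4hb rose by 0.85 and 1.03, Pdia6 by 0.73 and 1.02, Pdia4 by 0.61 and 0.92, and Pdia3, which serves Calr and Canx, by 0.39 and 0.69 (log2, NB9464 and NBT3L TCM). All 5 genes of translocation and export were called higher as well, among them Sec61a1, the channel through which new proteins enter the ER (0.68 and 0.81), and Sec24d, a coat subunit that picks cargo for export (0.79 and 0.98). The call of Sec61b, the small subunit of the channel, with NB9464 TCM (0.68 ± 0.25, adjusted p = 0.0185) was lost without SJ1, SJ3 or SJ4, with an adjusted p of up to 0.189.

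In ERAD, 6 of 7 genes rose with each medium, the exception being Edem1, which hands misfolded glycoproteins over for degradation (0.08 ± 0.06 and 0.08 ± 0.06, adjusted p = 0.364 and 0.328). With total counts as size factors Edem1 turned negative with both media. Herpud1, a scaffold of the ubiquitin ligase that serves ERAD, had 2529 and 2244 normalized counts in NS, 7516 and 7821 with NB9464 TCM and 5282 and 5228 with NBT3L TCM. Its rise with NB9464 TCM, 1.68 ± 0.10 (adjusted p = 1.52e-66) or 3.21-fold, was the largest of the 32 members in that comparison, and with NBT3L TCM it was 1.14 ± 0.10 (adjusted p = 1.64e-30). The ligase Syvn1 rose by 0.57 and 0.73, its partner Sel1l by 0.29 and 0.37, and Selenos, which recruits the extracting ATPase, by 0.82 and 0.92. The membrane proteins Derl1 and Derl2 rose by 0.61 and 0.37 with NB9464 TCM and by 0.47 and 0.30 with NBT3L TCM. Under total counts Sel1l and Derl2 were not called with NBT3L TCM.

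**Figure D3:**
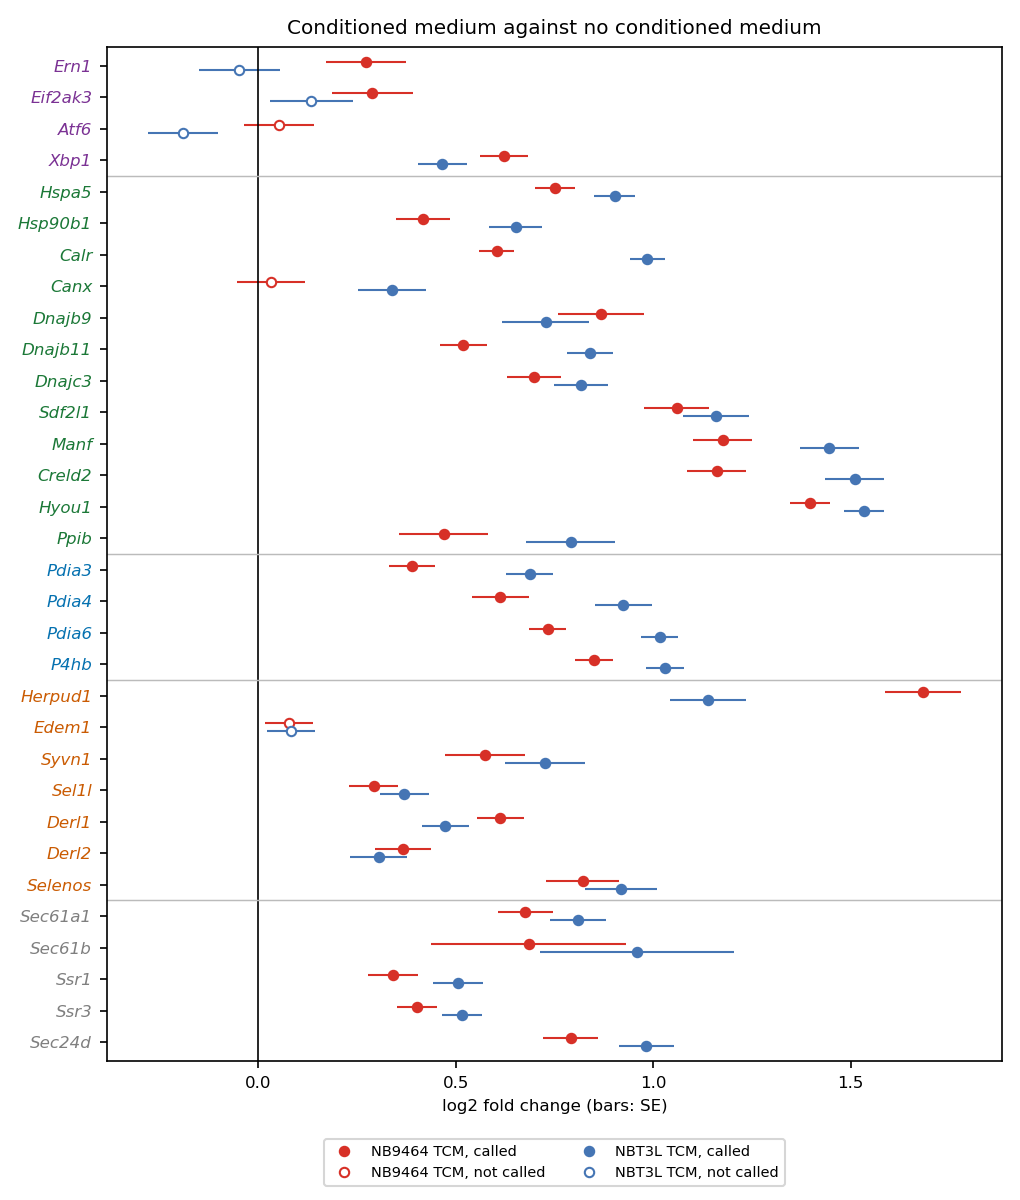
Log2 fold change of each member with NB9464 TCM (red) and NBT3L TCM (blue) against NS, with SE as bars. Filled points are called at an adjusted p under 0.05, and gene names are colored by role (purple sensors and factors, green chaperones, blue isomerases, orange ERAD, gray translocation and export). All called points lie above 0, Herpud1 and Hyou1 reach the highest values, and Atf6 and Edem1 with both media, Canx with NB9464 TCM and Ern1 and Eif2ak3 with NBT3L TCM are not called, where total-count scaling turns the sign of Eif2ak3 and Edem1 with NBT3L TCM and of Atf6, Canx and Edem1 with NB9464 TCM and calls Ern1, Atf6 and Edem1 lower with NBT3L TCM.

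Calls could hardly separate members with a motif in the searched windows from those without, because nearly all members were called higher. No motif here means no exact match of the fixed letters. Of the 11 with a motif, 10 were called higher with NB9464 TCM and 11 with NBT3L TCM, and of the 16 with a window and no motif 15 and 13 were. The median log2 fold change was 0.70 and 0.90 in the 11 with a motif and 0.44 and 0.60 in the 16 without. Canx, which holds an ERSE, had the lowest value of the first group with NB9464 TCM (0.03), and Herpud1, with its ERSE-II, the highest (1.68). The groups were not compared by a test.

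NB9464 TCM was set directly against NBT3L TCM, where 9.26% of all tested genes were called (3.61% higher and 5.65% lower). Of the members, 2 were higher with NB9464 TCM and 14 were lower, with a median log2 difference of -0.14. The 14 were 9 chaperones, all 4 disulfide isomerases and Sec24d. Calr was lowest relative to NBT3L TCM, with 104419 and 110491 counts against 139584 and 140210 (-0.38 ± 0.04, adjusted p = 1.40e-15). Creld2 (-0.35 ± 0.07), Ppib (-0.32 ± 0.11) and Dnajb11 (-0.32 ± 0.06) followed, and Hspa5 differed by -0.15 ± 0.05 (adjusted p = 0.0328). The 2 members higher with NB9464 TCM were Herpud1 (0.55 ± 0.10, adjusted p = 4.58e-07) and Ern1 (0.32 ± 0.10, adjusted p = 0.0171), and the libraries of the 2 media did not overlap for either. Neither Xbp1 (0.16 ± 0.06, adjusted p = 0.0768), Atf6 (0.24 ± 0.09, adjusted p = 0.0505) nor Eif2ak3 (0.15 ± 0.10, adjusted p = 0.404) was called.

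That comparison depends on single libraries and on scaling. The 16 calls became 7 without SJ3, 8 without SJ5 and 9 without SJ6, and edgeR called 11. With total counts as size factors, which moved the median of all tested genes by 0.10, 5 members were higher (Ern1, Atf6, Xbp1, Herpud1 and Derl1) and 6 lower (Calr, Dnajb11, Creld2, Pdia3, Pdia4 and Pdia6). Under that scaling 10.9% of all tested genes were called, 1284 higher and 494 lower. Calr, Dnajb11, Creld2, Pdia3, Pdia6 and Herpud1 kept their call under each of the 18 other settings. Those of Ern1 and Ppib were lost without SJ3 or SJ5 among others, with an adjusted p of up to 0.317 and 0.391, and that of Hspa5 in edgeR and without any 1 of SJ3 to SJ6, SJ11 and SJ12, with one of up to 0.2996. The same contrast was made between the 4 libraries given TCM and R788. It compares other libraries than the first but comes from the same fit of all 12, so it is not an independent repeat. It called 5 members higher and 13 lower with NB9464 TCM, where 9.53% of all tested genes were called (3.49% higher and 6.04% lower). Of the 14 and 13 members lower, 12 were lower in both, and Ern1 and Herpud1 were higher in both. Under R788 the largest differences were those of Creld2 (-0.49 ± 0.07), Pdia6 (-0.49 ± 0.05), Pdia4 (-0.40 ± 0.07) and Calr (-0.33 ± 0.04) among the lower and Herpud1 (0.65 ± 0.09), Ern1 (0.35 ± 0.10), Atf6 (0.35 ± 0.09) and Dnajb9 (0.34 ± 0.11) among the higher. The 18 calls became 11 without SJ10 or SJ11 and 9 without SJ12. The calls of Ern1, Atf6 and Dnajb9 were each lost without SJ12, and without SJ9, SJ10 or SJ11 for some of them, with an adjusted p of up to 0.221.

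**Figure D4:**
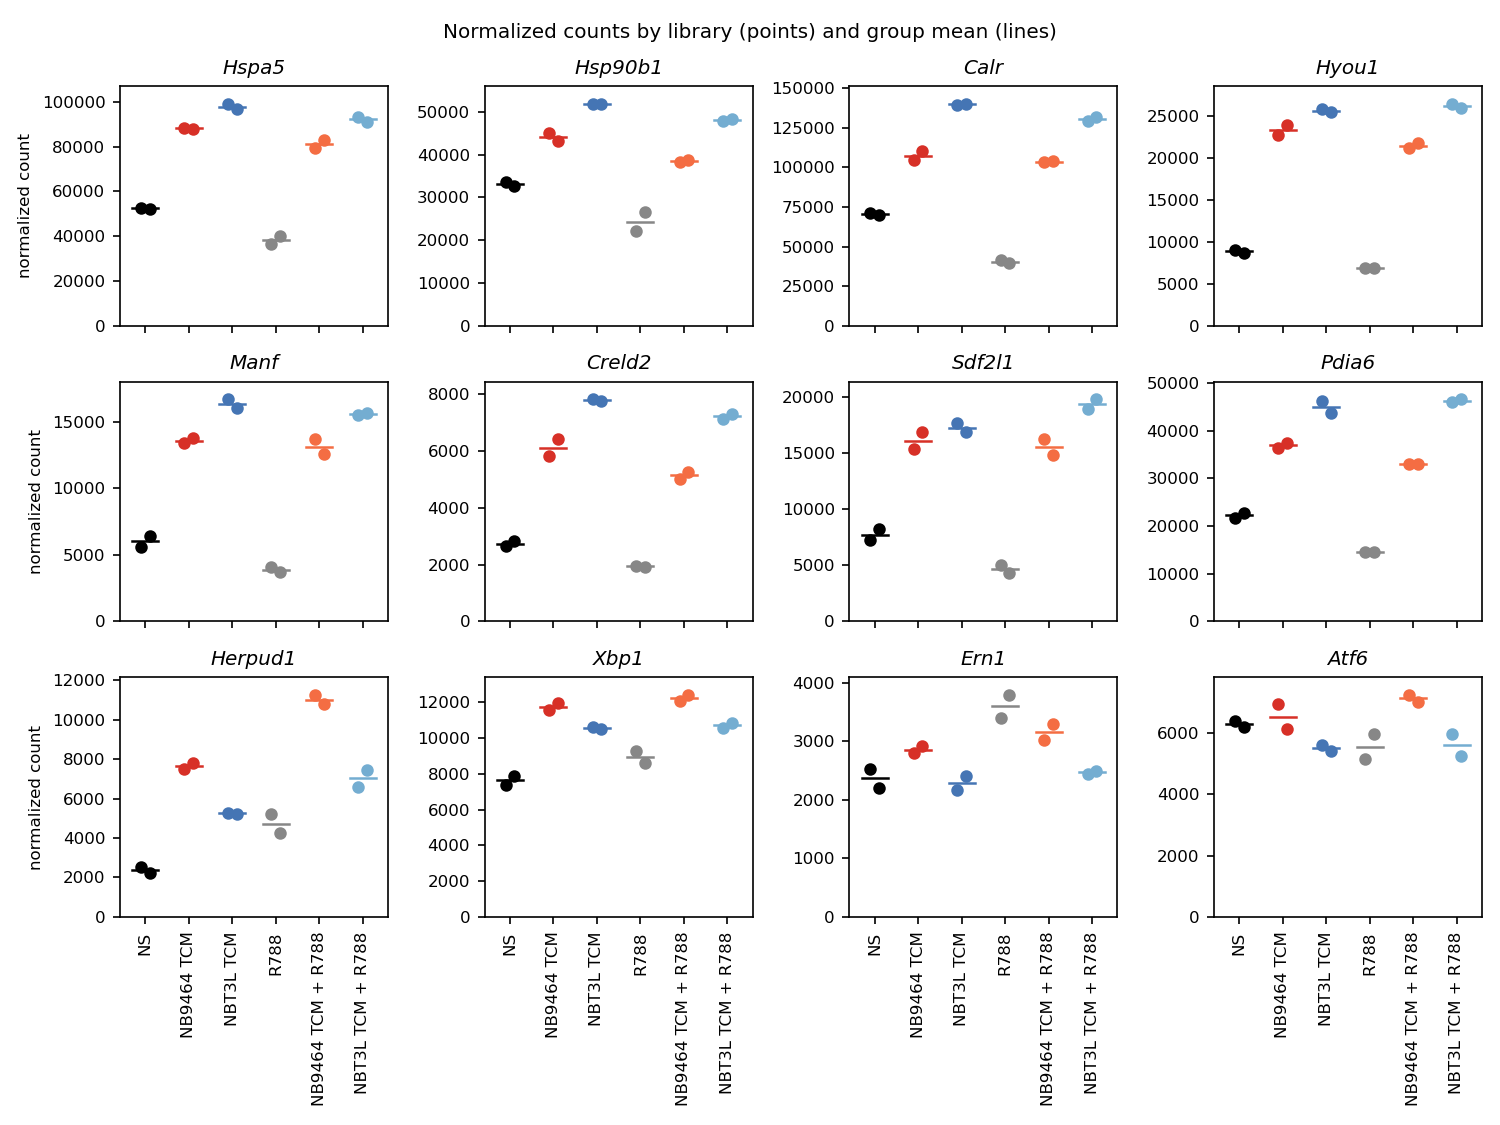
Normalized counts of 12 members in each library (points) with the group mean (lines), on linear axes from 0. Color marks the group. In the 8 chaperone and isomerase panels R788 alone is lowest, NS next and the 4 groups with TCM above both, while Herpud1, Xbp1 and Ern1 are higher with R788 than in NS.

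The second question was what the Syk inhibitor R788 does. No library came from cells without Syk, so the changes below are given for R788 only. In macrophages without TCM, R788 lowered 18 of the 32 members and raised 4, where 26.4% of all tested genes were called (11.5% higher and 14.9% lower). The median log2 fold change of the members was -0.27, beside 0 over all tested genes. Of the members lowered, 10 were chaperones, 4 disulfide isomerases, 2 ERAD genes and 2 translocon genes. Calr had 71256 and 70138 normalized counts in NS and 41447 and 39546 with R788, a log2 change of -0.80 ± 0.04 (adjusted p = 5.90e-70). Sdf2l1 had 7238 and 8243 counts in NS and 5012 and 4298 with R788 (-0.73 ± 0.08, adjusted p = 9.88e-17). Manf had 5579 and 6452 counts and 4079 and 3711 (-0.63 ± 0.08, adjusted p = 5.77e-15). In these genes and in Pdia6, with 21752 and 22744 counts in NS and 14514 and 14448 with R788 (-0.62 ± 0.05, adjusted p = 4.20e-37), both R788 libraries lay below both NS libraries. The 2 groups did not overlap for 26 of the 32 members. That share was not computed for all tested genes here, and was 64.5% and 66.8% for NB9464 and NBT3L TCM against NS. The count thus cannot be called particular to the members. Hspa5 had 36346 and 40206 counts with R788, below its level in NS (-0.45 ± 0.05, adjusted p = 1.08e-16).

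The 4 members raised by R788 were 2 of the 4 sensors and factors and 2 of the ERAD genes. Herpud1 had 2529 and 2244 counts in NS and 5203 and 4229 with R788 (0.98 ± 0.10, adjusted p = 1.89e-22). Ern1 had 2529 and 2207 counts in NS and 3410 and 3795 with R788 (0.61 ± 0.10, adjusted p = 2.84e-08), so that R788 alone was its highest group. Xbp1 had 9298 and 8587 counts with R788, above both NS libraries (0.23 ± 0.06, adjusted p = 0.00132). Derl1 had 7347 and 7599 counts in NS and 9055 and 8479 with R788 (0.23 ± 0.06, adjusted p = 0.000788). Eif2ak3 (0.16 ± 0.10, adjusted p = 0.266) and Atf6 (-0.18 ± 0.09, adjusted p = 0.124) were not called. R788 alone was the group with the lowest mean for 25 of the 32 members, and NBT3L TCM that with the highest for 16. The same shares over all tested genes were not computed, so these counts cannot be called particular to the members.

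The members differed between the 2 R788 libraries by a median of 0.15 on the log2 scale, against 0.03 to 0.08 in the other 5 pairs. Sec61b, with 3412 and 1964 counts there, was not called (-0.36 ± 0.25, adjusted p = 0.31). Without SJ8, which had the fewest detected genes, 4 members were called higher and 17 lower, and without SJ7 4 and 20. The calls of Canx, Ppib, Edem1, Derl2 and Xbp1 were lost under at least 1 of the 18 settings, with a highest adjusted p of 0.466, 0.347, 0.283, 0.246 and 0.0777. All 5 were lost in a fit of only the 4 libraries compared and without SJ1, except that Canx, Ppib, Edem1 and Derl2 were also lost without others, SJ7 for Canx and Edem1 and SJ8 for Ppib and Derl2 among them. Under total counts, which moved the median of all tested genes by 0.06, the same 4 members were higher and 14 were lower.

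In NB9464 TCM, where 14.3% of all tested genes were called (5.64% higher and 8.68% lower), 1 member was higher with R788 and 4 were lower. The share of members called thus lay near that of all tested genes. It lay below the 25.4% called among genes averaging 1000 counts or more, so the count is not particular to the members. Creld2 had 5810 and 6436 counts in NB9464 TCM and 5026 and 5257 with R788 added (-0.25 ± 0.07, adjusted p = 0.0061). Pdia4 (-0.22 ± 0.07), Hsp90b1 (-0.20 ± 0.07) and Pdia6 (-0.16 ± 0.05) were the others lowered, with adjusted p of 0.0231, 0.0289 and 0.00579. Herpud1 rose from 7516 and 7821 counts to 11245 and 10784 (0.52 ± 0.09, adjusted p = 1.06e-06), which made NB9464 TCM + R788 its highest group. The 5 calls became 2 without SJ4 or SJ10, 1 without SJ9 and 8 without SJ7 or SJ8, and the call of Herpud1 was kept throughout. Hspa5 had 79336 and 82994 counts with NB9464 TCM + R788 (-0.12 ± 0.05, adjusted p = 0.103). The 4 sensors and factors were not called, with values between -0.08 (Eif2ak3) and 0.14 (Ern1).

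In NBT3L TCM, where 12.6% of all tested genes were called (5.34% higher and 7.25% lower), Herpud1 was the only member called, with 5282 and 5228 counts in NBT3L TCM and 6592 and 7445 with R788 added (0.42 ± 0.10, adjusted p = 0.000213). A fit of only those 4 libraries called 11 members, 4 higher and 7 lower, and 6 were called without SJ7 and 7 without SJ8, so a count of 1 does not show that the other members did not move. The members' median log2 value was -0.03 here and -0.01 in NB9464 TCM. Hspa5 had 93233 and 91268 counts with NBT3L TCM + R788 (-0.09 ± 0.05, adjusted p = 0.297), and Calr 129196 and 131981 (-0.10 ± 0.04, adjusted p = 0.118). Averaged over the 3 media, R788 lowered 16 members and raised 4, where 29.6% of all tested genes were called (13.4% higher and 16.2% lower). Over the media the falls were led by Calr (-0.32 ± 0.03), Pdia4 (-0.30 ± 0.04), Creld2 (-0.29 ± 0.04) and Hsp90b1 (-0.25 ± 0.04), and the rises were those of Herpud1 (0.64 ± 0.06), Ern1 (0.29 ± 0.06), Derl1 (0.17 ± 0.03) and Xbp1 (0.10 ± 0.04), of which Xbp1 lost its call without SJ1, SJ3, SJ6, SJ10 or SJ12, with an adjusted p of up to 0.0757.

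**Figure D5:**
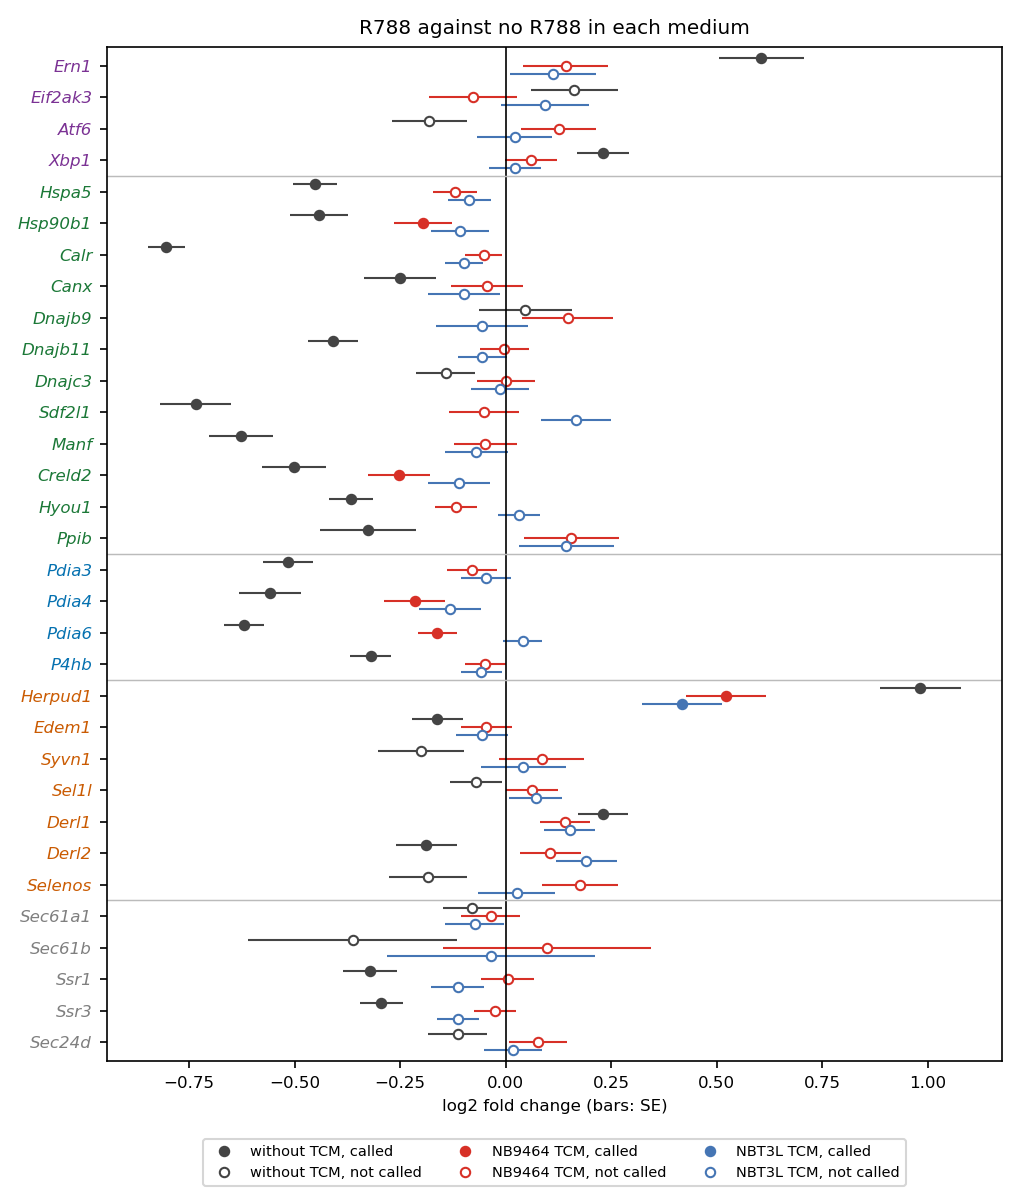
Log2 fold change of each member with R788 against no R788, without TCM (dark gray), in NB9464 TCM (red) and in NBT3L TCM (blue), with SE as bars and filled points for called members, names colored by role from sensors (purple) to translocation (gray). The gray points of chaperones and isomerases lie furthest below 0, those of Calr at -0.80 and Sdf2l1 at -0.73, and Herpud1 is filled above 0 in all 3 media. Total-count scaling turns the sign of Dnajc3 in both media and of Ssr1 in NB9464 TCM, all of them uncalled.

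Whether the effect of R788 differed between media was tested directly. Relative to its effect without TCM, the effect in NB9464 TCM was higher for 15 members and lower for 2, where 12.4% of all tested genes were called (6.09% higher and 6.28% lower). In NBT3L TCM it was higher for 14 and lower for 2, where 10% were called (5.13% higher and 4.91% lower). Both differences use the same libraries without TCM. Higher here means that the log2 value of R788 was further up in TCM than without it, whether less negative or above 0, as for Sdf2l1 in NBT3L TCM (0.17 ± 0.08, not called). The largest in NB9464 TCM were those of Calr (0.75 ± 0.06), Sdf2l1 (0.68 ± 0.12), Manf (0.58 ± 0.11) and Ppib (0.48 ± 0.16). In NBT3L TCM they were those of Sdf2l1 (0.90 ± 0.12), Calr (0.70 ± 0.06), Pdia6 (0.66 ± 0.07) and Manf (0.56 ± 0.11). Those of Hspa5 were 0.33 ± 0.07 (adjusted p = 0.000129) and 0.37 ± 0.07 (adjusted p = 1.99e-05). The 2 lower ones were Herpud1 (-0.46 ± 0.14 and -0.56 ± 0.14) and Ern1 (-0.46 ± 0.14 and -0.49 ± 0.14), whose rise with R788 was smaller in TCM. The call of Ern1 was lost in NB9464 TCM without SJ2, SJ4, SJ8 or SJ9 and in NBT3L TCM without SJ2, SJ6 or SJ11 (adjusted p up to 0.136 and 0.101), and that of Herpud1 in NB9464 TCM without SJ2 or SJ10 (up to 0.0927). That of Ppib was lost in 7 of 18 settings in each. Between the 2 media the effect of R788 differed for none of the 32 members in DESeq2, where 0.7% of all tested genes were called (0.276% higher and 0.424% lower). At an unadjusted p under 0.05 there were 2, both lower, and edgeR called none, while without SJ7 or SJ8 DESeq2 called 1, Pdia6. The count of 17 became 11 without SJ10 and 11, 8 higher and 3 lower, under total counts. Under that scaling 12.7% of all tested genes were called in this comparison, 640 higher and 1429 lower.

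TCM also raised the members in the presence of R788. The groups compared here are other libraries than those compared first. All contrasts came from 1 fit of the 12 libraries, with shared size factors and estimates of spread, so this is not an independent repeat. NB9464 TCM + R788 against R788 alone called 30 members higher and none lower (of all tested genes 40.4% were called, 20.7% higher and 19.6% lower), and NBT3L TCM + R788 called 29 higher and 1, Ern1, lower (41.2% called, 21.4% higher and 19.8% lower). Of the 29 and 30 called higher with NB9464 TCM, 27 were higher both without and with R788, and of the 28 and 29 with NBT3L TCM, 28 were. The largest rises were those of Manf (1.75 ± 0.08 with NB9464 TCM and 2.003 ± 0.08 with NBT3L TCM), Sdf2l1 (1.74 ± 0.08 and 2.06 ± 0.08), Hyou1 (1.64 ± 0.05 and 1.93 ± 0.05) and Creld2 (1.41 ± 0.08 and 1.90 ± 0.07). Hspa5 rose by 1.08 ± 0.05 and 1.27 ± 0.05. Ern1 had 3410 and 3795 counts with R788, 3027 and 3292 with NB9464 TCM + R788 (-0.19 ± 0.10, adjusted p = 0.123) and 2452 and 2499 with NBT3L TCM + R788 (-0.54 ± 0.10, adjusted p = 4.43e-07). Under total counts Ern1 was called lower with both (-0.40 and -0.82), and the members counted 27 higher and 1 lower with NB9464 TCM and 26 higher and 2 lower with NBT3L TCM. Under that scaling 43.2% of all tested genes were called with NB9464 TCM, 2141 higher and 4885 lower. With NBT3L TCM 46.5% were called, 2006 higher and 5564 lower. Edem1 was called higher with both (0.19 ± 0.06 and 0.19 ± 0.06) and under total counts turned to -0.02 and -0.09, neither called. Xbp1 rose by 0.45 ± 0.06 and 0.26 ± 0.06, and under total counts the second value turned to -0.02. Atf6 was called with NB9464 TCM (0.36 ± 0.09, adjusted p = 0.000229), though not under total counts (0.14), and not with NBT3L TCM (0.01 ± 0.09, adjusted p = 0.95), where total counts gave -0.27 and a call. Eif2ak3 was called with neither (0.05 ± 0.10 and 0.06 ± 0.10), and both values turned negative under total counts.

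The rest of the pathway was followed through further gene lists, whose counts stand beside 34.1% of all tested genes called with NB9464 TCM, 35.3% with NBT3L TCM and 26.4% with R788 alone, and beside 53.0%, 55.3% and 44.2% of those averaging 1000 counts or more. Among 10 genes listed for the PERK and ATF4 arm, Atf4 itself included, 7 were higher and 1 lower with NB9464 TCM. Their counts do not show PERK activity. Means of the listed gene Ddit3 were 902 in NS, 1054 with NB9464 TCM and 941 with NBT3L TCM. With NBT3L TCM 3 were higher and 6 lower. Between the media 7 were higher with NB9464 TCM and 1 lower, where 9.26% of all tested genes were called (3.61% higher and 5.65% lower). Among genes averaging 1000 counts or more, 17.2% were called between the media. Trib3, an inhibitory pseudokinase, had 789.9 and 750.0 normalized counts in NS, 1120 and 1125 with NB9464 TCM and 252 and 235 with NBT3L TCM. It differed between the media by 2.21 ± 0.16 (adjusted p = 5.64e-40). Chac1, which breaks down glutathione, had 299.6 and 265 counts in NS, 329 and 411 with NB9464 TCM and 9.90 and 17.3 with NBT3L TCM, a difference between the media of 4.75 ± 0.39 (adjusted p = 5.83e-31). Ppp1r15a, the phosphatase subunit that ends the PERK signal, rose with both (1.07 ± 0.12 and 1.13 ± 0.12). With R788 alone 8 of the 10 were higher and 1, Atf3, was lower (-1.12 ± 0.06), with Trib3 (1.11 ± 0.15) and Sesn2 (1.09 ± 0.13) the most raised. Under total counts the numbers higher and lower were 5 and 1 with NB9464 TCM, 1 and 6 with NBT3L TCM and 8 and 1 with R788. Under that scaling 35.9%, 41.8% and 26.7% of all tested genes were called, in the same order.

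Other folding enzymes of the ER, 21 genes, were higher for 11 and lower for 3 with NB9464 TCM and higher for 12 and lower for 2 with NBT3L TCM. The prolyl isomerase Fkbp11 went from 24.4 and 15.2 counts in NS to 152 and 176 with NB9464 TCM and 178 and 181 with NBT3L TCM (3.05 ± 0.42 and 3.18 ± 0.42). The sulfhydryl oxidase Qsox1 rose by 1.64 and 1.92, and the peroxiredoxin Prdx4 was lower (-0.92 and -0.50). Of 10 subunits of the oligosaccharyltransferase, which attaches sugar chains to new proteins, 9 were higher with each medium, led by Ostc (0.78 and 0.90), and 6 were lower and none higher with R788 alone, led by Rpn1 (-0.56). Of 14 further translocon and signal peptidase genes, 10 and 11 were higher and none lower. Of 16 genes of transport between ER and Golgi, 12 were higher with each medium and none lower, with Surf4 the most raised (0.81 and 0.99). Of 18 further ERAD genes, 7 and 8 were higher and 1 was lower with each medium, a share called that lies between those of all tested genes and of abundant genes, and among those called Edem2 was the most raised (0.88 and 0.98). Among 7 relatives and processing enzymes of ATF6, Creb3l2 (1.0003 and 0.75), Atf6b (0.75 and 0.66) and Creb3 (0.37 and 0.32) rose with both media, and the proteases Mbtps1 and Mbtps2 were not called. Under total counts fewer of these genes were called higher with the media, except with NB9464 TCM in 2 lists. There the further ERAD genes stayed at 7 higher and the ATF6 list at 3. The folding enzymes then counted 8 higher and 5 lower with NB9464 TCM, the oligosaccharyltransferase 5 and 1, and the further ERAD genes 3 and 3 with NBT3L TCM, where Creb3 was not called.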

How the data were processed

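RNA from 12 libraries, 2 in each of 6 groups taken from the labels, had been sequenced as polyA-selected RNA. The authors deposited one table of whole-number gene counts for 54232 Ensembl IDs with gene lengths, and no values had been normalized. Per the study's methods, reads had been mapped with STAR and quantified with Salmon, and the submitters' processing notes name STAR 2.6.1d, Salmon 1.4.0, SAMtools 1.9, Picard 2.26, MultiQC 1.11 and the build mm10, without their order. Total counts ranged from 44977847 to 56449685. Even numbers made up 65.2% to 67.9% of the low counts above 0, the only counts examined for this. A fit of counts divided by 2 was therefore added. The labels do not say that libraries of a group came from separate cultures or animals, so p-values measure only the spread between these libraries, which may be technical.

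GENCODE M21 gave symbols for 54165 IDs. Genes that reached 10 counts in 2 or more libraries were fitted in DESeq2 1.42.0 (R 4.3.3) with one mean per group, median-of-ratios size factors, Wald tests of each contrast and Benjamini-Hochberg adjustment over all genes tested, and called at an adjusted p under 0.05. Errors of log2 values are SE unless SD is named. TPM was computed from the deposited counts and lengths. Tests were run on simulated counts with 200 of 16281 genes changed, all averaging 1000 counts or more. For NB9464 TCM against NS, DESeq2 called 49 of 50 genes changed 2-fold and 49 of 50 changed 0.5-fold. It called 40 of 50 changed 1.33-fold and 29 of 50 changed 0.75-fold, so small changes can go uncalled. Rises and falls were equal in number, so a shift of many genes was not simulated. Alternatives were edgeR 4.0.16 (quasi-likelihood), TMM scaling, no count filter, a filter on mean counts (50 or more), counts divided by 2, only the libraries compared and each library left out. Total counts as size factors were added after the data were seen. Members, gene lists and motifs were chosen with earlier results of these data known. Hspa5, Xbp1, Atf6, Ern1 and Eif2ak3 were named throughout, with up to 4 called members of largest rise and fall in each contrast and up to 2 of each in the other lists. Other members were named after their values were seen. Promoter sequences came from RefSeq (GRCm38.p6).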

Additional observations from a re-analysis of the deposited data

Results flagged for a closer look

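The results below were picked out because a contrast in DESeq2 found that the effect of R788 on a member itself differed between cells with and without TCM (adjusted p under 0.05). Values are differences of log2 fold changes, the effect of R788 in TCM minus that without TCM, so that a positive value stands for a value with R788 in TCM that was less negative or above 0. In NB9464 TCM the difference was positive for Calr (0.75), Sdf2l1 (0.68), Manf (0.58), Ppib (0.48), Pdia6 (0.46), Pdia3 (0.44), Dnajb11 (0.40), Selenos (0.36), Pdia4 (0.34), Hspa5 (0.33), Ssr1 (0.33), Derl2 (0.29), P4hb (0.27), Ssr3 (0.27) and Hyou1 (0.25). It was negative for Ern1 (-0.46) and Herpud1 (-0.46). In NBT3L TCM it was positive for Sdf2l1 (0.90), Calr (0.70), Pdia6 (0.66), Manf (0.56), Pdia3 (0.47), Ppib (0.47), Pdia4 (0.43), Hyou1 (0.40), Creld2 (0.39), Derl2 (0.38), Hspa5 (0.37), Dnajb11 (0.35), Hsp90b1 (0.33) and P4hb (0.26). It was negative for Herpud1 (-0.56) and Ern1 (-0.49). Both sets rest on the same 4 libraries without TCM. In NB9464 TCM the calls of Derl2, Selenos and Ppib were kept in 6, 8 and 11 of 18 other settings, and in NBT3L TCM that of Ppib was kept in 11.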

How the results depend on the processing

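Over the 13 comparisons, 182 of 232 calls of members were kept under every setting tried besides total counts, and none changed direction. Leaving out 1 library at a time, the number of members called ranged over 7 to 22 (NB9464 against NBT3L TCM), 1 to 8 (R788 in NB9464 TCM), 1 to 7 (R788 in NBT3L TCM), 9 to 18 (the 2 media under R788), 11 to 20 (the R788 effect in NB9464 TCM minus that without TCM) and 0 to 1 (the R788 effect between the media). The members' median log2 value then ranged over 0.57 to 0.65 (NB9464 TCM), 0.77 to 0.82 (NBT3L TCM), -0.030 to 0.021 (R788 in NB9464 TCM), -0.038 to -0.00019 (R788 in NBT3L TCM), -0.11 to -0.075 (R788 averaged), 0.83 to 0.91 (NB9464 TCM under R788) and 0.21 to 0.28 (the R788 effect in NBT3L TCM minus that without TCM). For R788 in NBT3L TCM, TMM scaling, no count filter and a mean count of 50 or more each gave 2 calls, total counts 3 and only the libraries compared 11. For the R788 effect between the media, only the libraries compared and total counts each gave 1, and total counts gave 11 for NB9464 TCM minus no TCM. Under total counts the shares of all tested genes called were 12.5% (R788 in NBT3L TCM), 0.811% (the R788 effect between the media) and 12.7% (NB9464 TCM minus no TCM). Total counts, chosen after the data were seen, moved the median to 0.48 (NB9464 TCM), 0.57 (NBT3L TCM), -0.041 (NB9464 against NBT3L TCM), -0.20 (R788 alone), -0.0073 (R788 in NBT3L TCM), -0.072 (R788 averaged), 0.68 (NB9464 TCM under R788), 0.70 (NBT3L TCM under R788), -0.054 (the 2 media under R788), 0.19 (the R788 effect in NB9464 TCM minus that without TCM), 0.18 (the R788 effect in NBT3L TCM minus that without TCM) and -0.018 (the R788 effect between the media). Among single genes, the log2 values that crossed 0 when 1 library was left out ranged over -0.042 to 0.14 (Atf6, NB9464 TCM, crossed without SJ3), -0.15 to 0.052 (Ern1, NBT3L TCM, crossed without SJ1 or SJ5), -0.073 to 0.11 (Atf6, R788 in NBT3L TCM, crossed without SJ6 or SJ11), -0.0044 to 0.20 (Eif2ak3, R788 in NBT3L TCM, crossed without SJ6), -0.049 to 0.022 (Atf6, R788 averaged, crossed without SJ3 or SJ7 or SJ12), -0.092 to 0.11 (Atf6, NBT3L TCM under R788, crossed without SJ7 or SJ11), -0.058 to 0.024 (Eif2ak3, the 2 media under R788, crossed without SJ9), -0.17 to 0.035 (Eif2ak3, the R788 effect in NBT3L TCM minus that without TCM, crossed without SJ5) and -0.050 to 0.11 (Ern1, the R788 effect between the media, crossed without SJ6 or SJ10). With only the libraries compared, a value below 0 turned to 0.0026 (Eif2ak3, the 2 media under R788). Total counts turned the sign of others, to -0.075 (Atf6, NB9464 TCM), -0.097 (Eif2ak3, NBT3L TCM), 0.011 (Atf6, R788 averaged), -0.17 (Eif2ak3, NB9464 TCM under R788), -0.27 (Atf6, NBT3L TCM under R788), -0.022 (Xbp1, NBT3L TCM under R788), -0.22 (Eif2ak3, NBT3L TCM under R788), 0.052 (Eif2ak3, the 2 media under R788) and -0.0046 (Ern1, the R788 effect between the media). Of these Xbp1 had been called, as had Edem1, whose values with both media under R788 also turned negative. The cause was not tested. Of 2269 values of named genes over all settings, 81 lost and 30 gained a call and 25 changed sign. No paired analysis was possible because library numbers run from 1 to 12 and no groups share one.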

Other observations

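Chaperones outside the ER were followed through 2 lists, beside 34.1% of all tested genes called with NB9464 TCM, 35.3% with NBT3L TCM and 26.4% with R788 alone (53.0%, 55.3% and 44.2% of those averaging 1000 counts or more). Of 14 cytosolic chaperones and co-chaperones, 6 were higher with NB9464 TCM, 8 with NBT3L TCM and none lower with either, and 8 were lower and none higher with R788 alone. Under total counts 3, 7 and none were higher and 2, 2 and 8 lower. Under that scaling 35.9%, 41.8% and 26.7% of all tested genes were called, in the same order. The inducible cytosolic HSP90 gene Hsp90aa1 had 18595 and 17887 normalized counts in NS, 26464 and 27399 with NB9464 TCM, 30491 and 31659 with NBT3L TCM and 8700 and 11444 with R788. It rose by 0.56 ± 0.09 and 0.77 ± 0.09 with the media and fell with R788 alone (-0.86 ± 0.09) and in both media (-0.42 ± 0.09 and -0.44 ± 0.09), with adjusted p of 7.14e-21, 4.22e-05 and 1.11e-05 in DESeq2. Hsph1, a nucleotide exchange factor of cytosolic HSP70, fell with R788 alone (-0.78 ± 0.10) and in both media (-0.32 ± 0.09 and -0.45 ± 0.09).

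Of 8 mitochondrial chaperones and proteases, 5 were higher with NB9464 TCM, 6 with NBT3L TCM and none lower, and 3 were lower and none higher with R788 alone. Under total counts 4, 3 and 1 were higher and none, none and 2 lower. Hspd1, the mitochondrial HSP60, rose by 0.55 ± 0.06 and 0.61 ± 0.06 and fell with R788 alone (-0.44 ± 0.06). Hspa9, the mitochondrial HSP70, was the only gene of that list called higher with NB9464 than with NBT3L TCM in DESeq2 (0.23 ± 0.05).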
